A study of Mus musculus with 16 samples.

Results

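H3K27Ac, the acetylation of lysine 27 on histone H3, was compared between adult cardiomyocytes of mice with desmin (Des+/+) and without desmin (Des-/-) that had not been made to swim. The comparison used the 2 H3K27Ac peak lists of unstressed mice out of 16 samples in the series, 8 of which were immunoprecipitated libraries with a peak list. It asked how chromatin activity differed at rest when desmin was absent. Members were taken by genotype, antibody and condition alone, and no measured value was used to choose them. The Des+/+ list held 15757 peaks and the Des-/- list 16638.

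Both groups were mice of 3 months, on a 129SV background by the study's methods, and animals of either sex could be used. Des+/+ mice had both desmin alleles intact. Des-/- mice lacked desmin in every tissue from conception, so effects inside the cardiomyocyte and effects of the diseased heart around it cannot be told apart. In the methods, the names Des+/+ and Des-/- stand for mice of a line that also carries a GFP reporter driven by the cardiomyocyte alpha-MHC promoter in both genotypes, which the labels of these samples do not name. Cardiomyocytes were freed by enzymatic perfusion, and no sorting of them is described. Chromatin of several mice was pooled into 1 library per genotype. There was thus 1 library a side, nothing here has a replicate check, and no test between genotypes was possible. Intervals are exact or Wilson 95% intervals that cover counting error only.

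H3K27Ac is laid down by the acetyltransferases p300 and CBP at active promoters and enhancers, where nucleosomes next to bound transcription factors carry it. Its level over a gene's promoter and enhancers usually follows that gene's activity in the cells sampled. Desmin is the muscle intermediate filament protein. It ties Z-discs, desmosomes, mitochondria and the nuclear envelope to one another, and its loss in mice leads to a dilated cardiomyopathy with cell death and fibrosis.

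A peak's height was the deposited number of overlapping reads at its top, with the height of the input control there beside it. The lowest height listed was 15 reads, which has a 95% Poisson interval of 8.4 to 24.7 reads, and median height was 23 reads in both lists. Peaks with an input height of 10 or more were left out, which removed 26 Des+/+ and 41 Des-/- peaks. Defining genes of working cardiomyocytes carried peaks in both lists, among them Myh6, the adult myosin heavy chain (46 reads in Des+/+ and 44 in Des-/-), and Tnnt2, cardiac troponin T (32 and 28).

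Windows of 300 bases, each centred on the top of a peak in the list where it was higher, show the sequence under the members that the results turn on (GRCm38, plus strand). They are the promoters of Cwc22 and Hmgb2, the largest position-matched difference upwards and one of the largest downwards, an upstream element of Myl2, the highest peak of Des itself, just downstream of its start, and an element near Csf2rb, the gene with the highest Des-/- peak among genes with no Des+/+ region. Capitals mark matches on either strand to short motifs of 6 factor families described further on.

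Cwc22, chr2:77945902-77946201: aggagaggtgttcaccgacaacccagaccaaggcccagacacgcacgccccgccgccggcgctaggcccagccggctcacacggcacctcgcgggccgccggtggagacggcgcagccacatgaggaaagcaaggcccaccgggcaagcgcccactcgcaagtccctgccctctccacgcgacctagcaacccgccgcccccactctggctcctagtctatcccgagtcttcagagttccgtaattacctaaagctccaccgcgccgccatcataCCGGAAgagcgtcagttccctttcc

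Hmgb2, chr8:57511934-57512233: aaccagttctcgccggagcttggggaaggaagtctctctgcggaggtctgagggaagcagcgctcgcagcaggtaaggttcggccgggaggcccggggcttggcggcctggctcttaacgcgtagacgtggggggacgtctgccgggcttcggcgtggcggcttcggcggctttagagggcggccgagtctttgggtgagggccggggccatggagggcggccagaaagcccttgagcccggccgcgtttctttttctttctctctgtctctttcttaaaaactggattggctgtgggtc

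Myl2, chr5:122093828-122094127: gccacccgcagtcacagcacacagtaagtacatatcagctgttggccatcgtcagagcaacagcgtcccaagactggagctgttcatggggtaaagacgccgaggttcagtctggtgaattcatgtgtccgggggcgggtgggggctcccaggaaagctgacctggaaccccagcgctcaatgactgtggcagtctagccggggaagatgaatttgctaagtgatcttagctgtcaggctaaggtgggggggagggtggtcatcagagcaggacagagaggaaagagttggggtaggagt

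Des, chr1:75361006-75361305: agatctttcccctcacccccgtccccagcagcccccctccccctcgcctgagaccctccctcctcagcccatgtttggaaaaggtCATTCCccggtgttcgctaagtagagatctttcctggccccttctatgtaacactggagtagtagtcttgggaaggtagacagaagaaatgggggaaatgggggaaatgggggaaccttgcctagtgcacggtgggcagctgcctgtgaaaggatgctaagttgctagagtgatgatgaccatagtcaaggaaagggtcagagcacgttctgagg

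Csf2rb, chr15:78317847-78318146: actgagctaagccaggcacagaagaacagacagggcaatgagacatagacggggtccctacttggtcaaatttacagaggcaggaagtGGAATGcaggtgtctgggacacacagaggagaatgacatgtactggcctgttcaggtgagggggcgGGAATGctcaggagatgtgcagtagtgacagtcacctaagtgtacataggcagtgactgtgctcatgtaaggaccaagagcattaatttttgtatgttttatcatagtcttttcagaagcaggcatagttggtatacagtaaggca

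The Cwc22 window holds 1 ETS motif, CCGGAA, with 66.3% G and C and 29 CpG dinucleotides, in a peak that overlaps a transcription start. The Hmgb2 window holds none of the motifs and 26 CpG. The Myl2 window lies 6400 bp upstream of the gene and holds none of them. The Des and Csf2rb windows hold 1 and 2 matches of the TEAD motif GGAATG, which reads CATTCC on the other strand in the Des window.

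Most peaks were shared. Of the Des+/+ peaks with low input, 2285 of 15731 (14.5%) overlapped no Des-/- peak, and of the Des-/- peaks 3253 of 16597 (19.6%) overlapped no Des+/+ peak. Heights from 15 to 17 reads made up 69.6% of the Des+/+-only peaks and 66.3% of the Des-/- only peaks, against 17.8% and 15.6% of the shared ones. Only 34 Des+/+-only and 78 Des-/- only peaks reached 25 reads. The highest Des-/- only peak, of 45 reads, lay at -798 bp from the start of Rbpj, the DNA-binding effector of Notch signalling, next to a promoter peak of 67 reads in Des+/+ and 48 in Des-/-. After swimming its place had 18 reads in Des+/+ and 27 in Des-/-.

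The lists of the swum mice are separate libraries and show how often such a peak was seen again. Of the Des-/- only peaks, 13.1% (12 to 14.3%) had a partner in the Des-/- swim list and 12.8% (11.7 to 14%) in the Des+/+ swim list. A peak listed at rest only without desmin was therefore met about as often in swum mice with desmin, without allowance for the unlike lengths of the swim lists. Shared Des-/- peaks had partners less often in the Des-/- swim list, 65.5% (64.7 to 66.3%), than in the Des+/+ swim list, 68.9% (68.1 to 69.7%). Of the Des+/+-only peaks, 15.5% (14.1 to 17.1%) had a partner in the Des+/+ swim list and 10.0% (8.86 to 11.3%) in the Des-/- swim list. Shared Des+/+ peaks also had partners more often in the former, 68.7% (67.9 to 69.5%) against 65.1% (64.3 to 65.9%). Shared peaks had a partner there in 65.1 to 68.9% of cases.

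Sequence under the peak tops was searched for motifs. The motifs searched, on both strands, were AGATAA of the GATA factors, TGANTCA of AP-1, GGAATG of TEAD, TAAAAATA of MEF2, CCGGAA of ETS factors and TGACGTCA of CRE-binding factors. No motif's letters are contained in another's, but an ETS and a TEAD match can share bases. Of all 18984 windows, 7.96% held the GATA motif, 5.98% AP-1, 13.3% TEAD, 1.63% MEF2, 13.5% ETS and 0.616% CRE. Away from promoters, the GATA motif was in 13.3% of Des+/+-only, 13.6% of Des-/- only and 13.0% of shared windows, and the AP-1 motif in 8.84, 9.87 and 8.79%. Distal ETS matches were in 3.90, 4.78 and 6.85% of the same windows. At promoters, median CpG per window was 9 in Des+/+-only, 13 in Des-/- only and 23 in shared peaks, and the GATA motif was in 9.89, 7.22 and 4.79%. The genotype-only promoter peaks thus sat on CpG-poorer sequence than the shared ones in both genotypes. Shared windows were taken from the Des+/+ peaks. Windows were not matched for height, and genotype-only peaks of all places were lower. Their median was 16 reads in both genotypes, against 25 in shared Des+/+ and 26 in shared Des-/- peaks.

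For each gene, the highest low-input peak of each list was compared as the ratio of Des-/- to Des+/+, relative to the median ratio over all genes. There were 10604 genes with a peak in either list, 8764 of them in both, and the median ratio was 1.07. At 1.5-fold from that median, 267 genes (3.05%) were higher and 265 (3.02%) lower in Des-/-. A further 1180 genes (11.1%) had a peak in Des-/- only and 660 (6.22%) in Des+/+ only.

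Part of these calls came from how peaks were given to genes. Peaks are named after the nearest transcription start, and a peak over a promoter shared by a pair of neighbours was named after one gene in the first list and after the other gene in the second. Eif4a2, a translation initiation factor, and Snord2, a small RNA in its own intron, were each in 1 list only, but the region itself had 94 reads in Des+/+ and 98 in Des-/-. The same held for Son with Gart, Tst with Mpst, Pfdn4 with Gm16796 and Prpf4 with Cdc26. Of the 78 Des+/+-only genes with a height of 25 or more, 70 had no such absence when compared by position, and of the 116 such Des-/- only genes 76 had none.

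The limit on input acted the same way on a few genes. Vim, the intermediate filament vimentin, stood at 16 reads in Des+/+ and 49 in Des-/-, but its main Des+/+ promoter peak had been removed for its input. With that peak the heights were 34 and 49, a relative ratio of 1.34. Chd7, a chromatin remodeller, went from 30 and 85 reads to 76 and 85, a relative ratio of 1.04. Both are among the 267 higher genes above, by the comparison with the limit.

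Genes were therefore also compared over merged regions of both lists, leaving out regions with an input height of 10 or more in either. Each gene took its highest height in each list over the same set of regions, called by position here. Where a gene has several regions, its Des+/+ and Des-/- heights can come from different ones, as for Mybpc3, Nfil3, Irx4, Ankrd1 and Esrrg. Of 9045 genes with heights on both sides, 252 (2.79%) were then higher and 257 (2.84%) lower at 1.5-fold. Of 10600 genes in all, 1045 (9.86%) were in Des-/- only and 510 (4.81%) in Des+/+ only. The counting interval of the relative ratio lay above 1 for 84 genes (0.929%) and below 1 for 65 (0.719%). Neither share exceeds what counting error alone leaves outside 95% intervals. Genes named below with an interval clear of 1 are the far ends of these 9045, so the interval alone does not set a gene apart. Of the 10 highest and 10 lowest genes by the first comparison, Cwc22 and 5 lower genes, Pde4a, Reno1, Cdc42bpa, Nav1 and Hmgb2, kept their call by position.

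**Figure D1:**
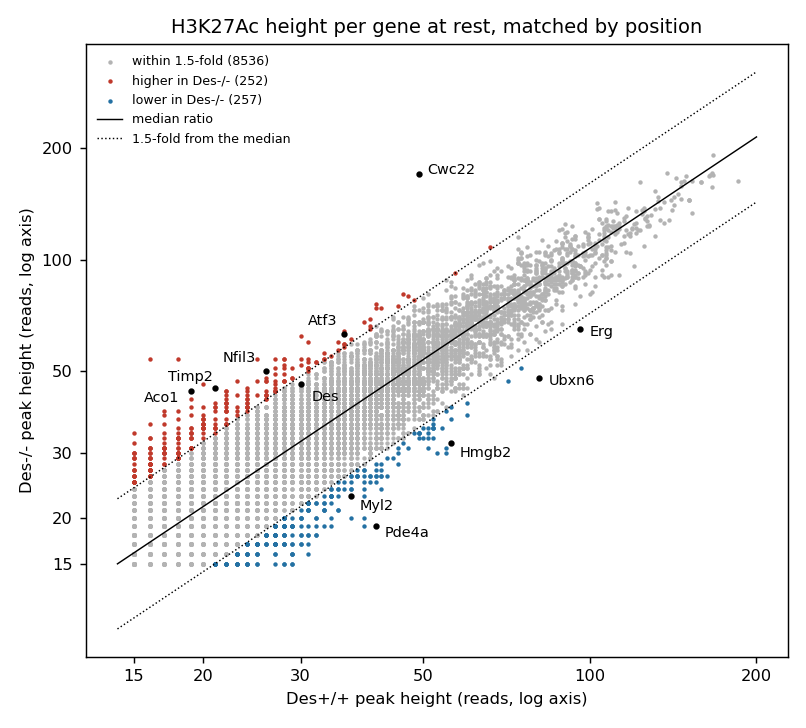
Each point is a gene, with its Des+/+ H3K27Ac height on the x axis and its Des-/- height on the y axis, in reads on log axes. Each height is the highest in that list over the gene's merged regions, so the heights of a gene can come from different regions. The solid line is the median ratio of 1.07 and the dotted lines lie 1.5-fold from it. Most genes lie between the dotted lines, and Cwc22 stands apart at 49 and 171 reads.

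The spread between the 2 libraries was no wider than counting reads would give. Among shared regions with a mean height of 40 to 60 reads, the log2 ratio had an SD of 0.276, where counting error alone gives 0.298. From 60 reads up the SD was 0.216 against 0.232, and from 30 to 40 reads it was 0.326 against 0.353. Below 25 reads both peaks have to reach 15 reads to be listed, which narrows the measured spread. Regions at promoters had a median relative log2 ratio of 0.02 and those elsewhere of -0.08.

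**Figure D2:**
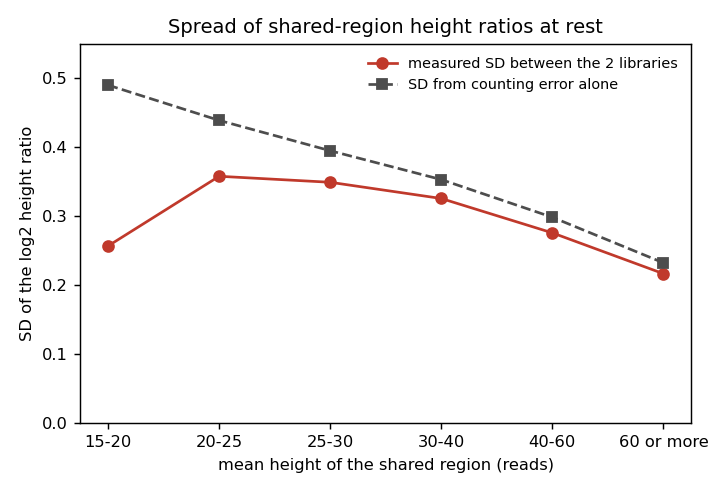
Points give the SD of the relative log2 height ratio of shared regions (y axis) in classes of mean height in reads (x axis). Circles are the measured SD between the Des+/+ and Des-/- libraries and squares the SD expected from counting error alone. The measured SD lies under the expected one in every class.

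Cwc22, a spliceosome factor that also helps to deposit the exon junction complex, had the largest difference. Its promoter peak had 49 reads in Des+/+ and 171 in Des-/-, a relative ratio of 3.25 (2.36 to 4.57), with input heights of 2 and 3. The Des-/- peak was also wider, 1680 bp against 972 bp. After swimming the same promoter had 36 reads in Des+/+ and 49 in Des-/-, the latter with an input height of 10, so a ratio of that size was not seen in the second pair.

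The other higher genes with counting intervals above 1 by position had lower peaks. The next in size lay on the X and Y chromosomes. The pools differed at sex-linked genes, as described further on, and a link of these entries to that difference was not tested. These entries were also not checked for sequence that the X and Y chromosomes share. They may therefore be the same locus and cannot be read as separate differences or as markers of sex. Mid1, a microtubule-binding ubiquitin ligase on the X chromosome, had 16 and 54 reads (3.14, 1.77 to 5.88), and 47 and 92 without the input limit. G530011O06Rik on the Y chromosome had 18 and 54 (2.79, 1.61 to 5.06), and 31 and 49 without the limit, and by its highest low-input peaks 31 and 27. Aco1, the iron-sensing cytosolic aconitase, had 19 and 44 reads (relative ratio 2.16, 1.23 to 3.92). Hikeshi, which carries HSP70 into the nucleus under heat stress, had 20 and 46 (2.14, 1.24 to 3.83), and after swimming 16 and 26. Tmem168 had 30 and 62 reads (1.93, 1.23 to 3.09). Nfil3, a repressor that acts in the circadian clock, had 26 and 50 (1.79, 1.09 to 3.00), and Atf3, a stress-induced transcription factor, 36 and 63 (1.63, 1.07 to 2.53). With the heights of all its peaks summed, 5 in Des+/+ and 3 in Des-/-, Nfil3 turned to a relative log2 ratio of -0.10. At rest these genes on autosomes were at 1.63 to 2.16 times the median ratio by their highest peak, and Nfil3 (29 and 30) and Atf3 (38 and 29) were not higher after swimming.

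Among the lower genes, Pde4a, a cAMP phosphodiesterase, had 41 reads in Des+/+ and 19 in Des-/- (0.432, 0.237 to 0.761). Hmgb2, a chromatin protein abundant in dividing cells, had 56 and 32 (0.533, 0.334 to 0.837), and Mcm7, a subunit of the replicative helicase, 42 and 24 (0.533, 0.309 to 0.900). Nav1, Reno1 and Cdc42bpa, a kinase that acts downstream of Cdc42, had 53 to 55 reads in Des+/+ and 30 to 31 in Des-/-. Ubxn6, an adaptor of the p97 segregase, had 81 and 48 (0.552, 0.378 to 0.799). After swimming Hmgb2 had 27 and 25 reads, Nav1 28 and 19, Reno1 23 and 23 and Cdc42bpa 25 and 34, the last on the higher side. With summed heights Nav1 turned to a relative log2 ratio of 0.03.

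Genes with a region in 1 list only, by position, were led by low peaks. In Des-/- the highest was Csf2rb, the shared beta receptor subunit for GM-CSF, IL-3 and IL-5, whose 3 peaks had 15, 36 and 16 reads. The peak of 36 reads lay 7040 bp upstream, where the Des-/- swim list had 16 reads and the Des+/+ swim list none. Then came Entpd6 with 32 reads and Lonp1, the protease of the mitochondrial matrix, Ptpra, Spdl1 and Gm5458 with 31. In Des+/+ the highest were H2-Q6, a class I histocompatibility gene, with 37 reads, and Sec31b, a coat protein of the secretory pathway, with 30. Neither had a peak in either swim list, while Ipp, with 28 reads at rest in Des+/+ only, had 23 reads in the Des-/- swim list.

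Contractile and membrane genes of the cardiomyocyte were mostly on the lower side, by small amounts. The relative log2 ratio had a median of -0.25 over 8 thin filament genes, -0.13 over 10 thick filament genes, -0.20 over 24 genes of the Z-disc and costamere, -0.22 over 13 of the intercalated disc and -0.25 over 12 cardiac ion channels. By definition the median over all 8764 genes was 0. Values were below 0 for 7 of 8 thin filament, 7 of 10 thick filament, 19 of 24 Z-disc, 10 of 13 intercalated disc and 9 of 12 channel genes. None of these lists had a gene that was 1.5-fold higher, against 3.05% of all genes. Pooled, 10 of 67 entries (14.9%) were 1.5-fold lower, against 3.02%. The 3.02% covers genes of all heights and is not matched to the heights of these lists or of those below. Among 2609 shared regions with a mean height of 20 to 25 reads, 157 were 1.5-fold lower and 125 higher. From 60 reads up, 3 of 1105 were lower and 10 higher. Calcium handling genes, given below, were outside this pool, and none of those 16 was past 1.5-fold. Xirp1 is a member of both the Z-disc and the intercalated disc list. The lists were chosen with earlier results of these data known, so the pooled share is not independent evidence. With the heights of all peaks of a gene summed, the thick filament median turned to 0.23, the intercalated disc median was -0.07 and the channel median -0.07, while those of thin filament and Z-disc were -0.43 and -0.23. At a mean height of 30 or more the intercalated disc median was -0.09.

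Myl2, the ventricular regulatory light chain, had 37 reads in Des+/+ and 23 in Des-/- (0.579, 0.329 to 1.0). Its upstream element, printed above, gave the 37 reads and had 23 in Des-/-, and its promoter had 30 and 23. Mybpc3, cardiac myosin-binding protein C, had 29 and 19 reads (0.611, 0.324 to 1.1). These are different peaks, and where Des+/+ had 29 reads Des-/- had 17. Myom2, a protein of the M-band, and Smyd1, a myosin-binding methyltransferase, had peaks of 15 and 18 reads in Des+/+ only. The other thick filament genes did not go the same way, since Ttn (28 and 37) and Myom1 (104 and 129) were above the median ratio.

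Lmod3, a nucleator of thin filaments, had 24 and 17 reads at its highest peak and 7 peaks against 2. At the Z-disc and costamere, Sgca, alpha-sarcoglycan, had 37 and 25 (0.630, 0.363 to 1.07) and Dtna, alpha-dystrobrevin, 26 and 18. Bag3, a chaperone of the Z-disc, was above the median ratio with 94 and 116. The intervals of these single genes include 1, as does each of those that follow in the intercalated disc and channel lists.

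In the intercalated disc list, Dsp, the desmosomal protein that binds desmin filaments, had 34 and 22 reads (0.603, 0.336 to 1.06), and after swimming 26 and 18. Ctnna3, alpha-T-catenin, had 21 and 15 reads, and Dsg2, the desmosomal cadherin, had 17 reads in Des+/+ only. Gja1, connexin 43, had 62 and 57, and Ctnnb1, beta-catenin, 43 and 59. Among the channels, Kcnh2, of the rapid delayed rectifier current, had 30 and 20, and Kcnq1 21 and 15. Kcnd2 and Kcnd3, of the transient outward current, had 16 and 20 reads in Des+/+ only, and Kcnj5 had 15 in Des-/- only.

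Calcium handling genes lay close to the median ratio, with a median of -0.10 over 16 genes and none past 1.5-fold. Atp2a2, the sarcoplasmic calcium pump, had 66 and 61 reads, and Camk2d, the calcium-dependent kinase, 39 and 59. Casq2 and Trdn, partners of the calcium release channel, were listed in Des-/- only and Hrc and Fkbp1b in Des+/+ only, with 16 to 18 reads each.

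Cardiac transcription factors had a median of -0.10 over 20 genes, 3 of them (15%) 1.5-fold lower, against 3.02% of all genes, and none higher. Irx4, a ventricular factor, had 25 and 16 reads, Meis2 28 and 19, and Ankrd1, a stress-responsive cofactor, 21 and 15. The heights of Irx4 and Ankrd1 came from different elements, so they do not show a fall of a single peak. In Des+/+ these lay at 10287 and -48263 bp from the start, and in Des-/- at the promoter. Intervals and alternatives for the 3 genes follow. The counting interval of each of the 3 includes 1. With summed heights Meis2 turned to a relative log2 ratio of 0.09 and Ankrd1 to 0.47. Gata4 (37 and 42), Mef2c (50 and 57), Mef2a (94 and 93) and Tbx20 (24 and 27) differed less. Nkx2-5, an early cardiac homeobox factor, kept its highest height (26 and 25) but had 7 peaks in Des+/+ and 2 in Des-/-, over 6491 and 4326 bp. Of the Des+/+ peaks of Nkx2-5, 4 with 15 to 26 reads had no Des-/- peak at their place, and 2 neighbouring ones upstream lay under 1 Des-/- peak.

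**Figure D3:**
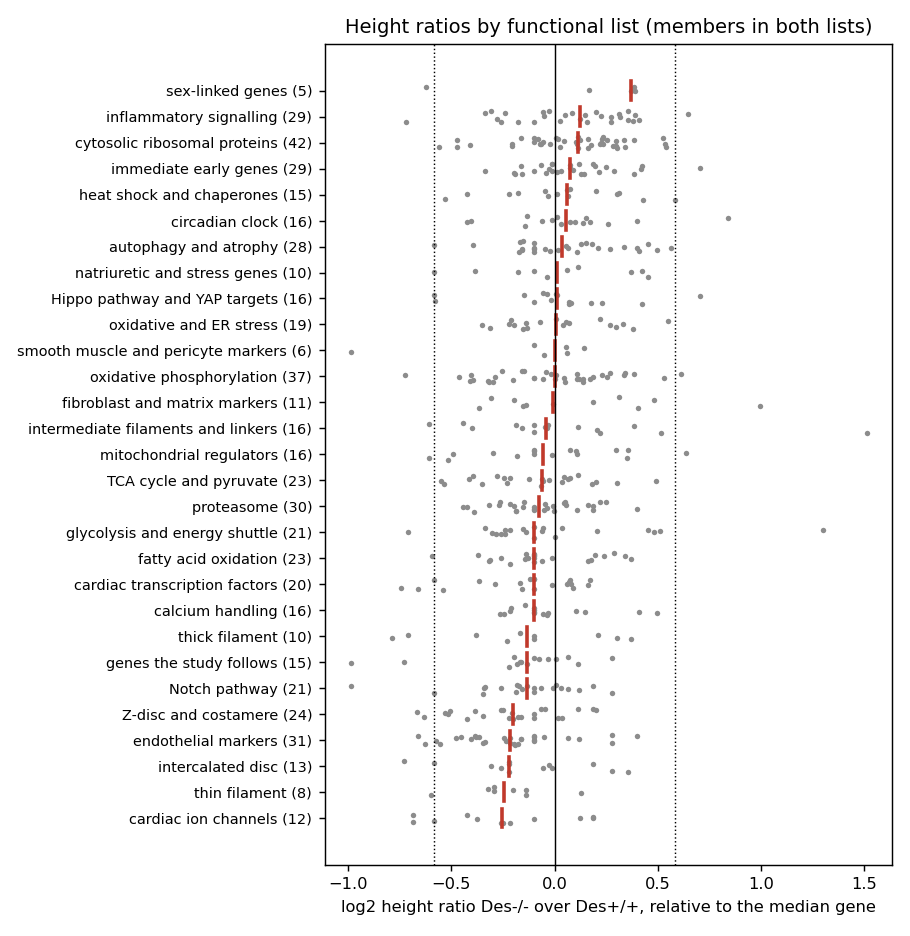
Each point is a gene of a functional list, placed by its log2 height ratio of Des-/- to Des+/+ relative to the median gene (x axis). Red bars are list medians, numbers in brackets are genes with a peak in both lists, and dotted lines mark 1.5-fold. Cardiac ion channels and thin filament genes have the lowest medians, both -0.25, and sex-linked genes the highest, 0.37. The points at 1.51 (Vim) and 1.30 (Pfkm) went below 1.5-fold without the input limit or by position.

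The linkers around desmin showed no common direction, with a median of -0.04 over 16 genes. The desmin locus itself kept its mark in Des-/-, which does not check the deletion, since a peak beside the start says nothing of the protein. At the start of Des the peak had 29 reads in both lists. The highest peak, just downstream of the start and classed as promoter, had 30 reads in Des+/+ and 46 in Des-/- (relative ratio 1.43, 0.883 to 2.35), and the highest Des peaks after swimming, upstream of the start in Des+/+ and downstream in Des-/-, had 24 and 37. Plec, plectin, had 44 and 46 reads, Lmna, lamin A/C, 76 and 73, and Syne1, nesprin-1, 20 and 28. Sun2, an inner nuclear membrane protein of the LINC complex, was 1.5-fold lower with 27 and 19 (0.656, 0.345 to 1.22). Synm, the desmin partner synemin, had 15 reads in Des+/+ only. The 55 shared regions within 5 Mb of Des had a median of -0.02.

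Energy metabolism differed little. Medians were 0.00 over 37 genes of oxidative phosphorylation, -0.06 over 23 of the TCA cycle and pyruvate, -0.10 over 23 of fatty acid oxidation, -0.10 over 21 of glycolysis and the energy shuttle and -0.06 over 16 mitochondrial regulators. Ndufs7, a subunit of complex I, had 54 and 35 reads (0.604, 0.383 to 0.942), and Cox7a2, of complex IV, 36 and 59 (1.53, 0.993 to 2.38). Slc2a4, the insulin-regulated glucose transporter, had 29 and 19, Fabp3, the heart fatty acid binding protein, 31 and 22, and Ppara, the nuclear receptor for fatty acids, 37 and 26. The counting intervals of Slc2a4, Fabp3 and Ppara include 1. Pgam2, the muscle form of phosphoglycerate mutase, had 24 reads in Des+/+ only, and 21 reads in the Des+/+ swim list with no peak in the Des-/- swim list.

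Stress and growth lists lay close to the median ratio, with the proteasome list below it and the others on it or slightly above. Medians were 0.07 over 29 immediate early genes, 0.06 over 15 heat shock genes and chaperones, 0.01 over 19 genes of oxidative and ER stress, 0.04 over 28 of autophagy and atrophy, 0.05 over 16 clock genes, 0.12 over 29 of inflammatory signalling, 0.11 over 42 cytosolic ribosomal protein genes and -0.08 over 30 proteasome genes. Immediate early genes were among the highest in both lists, with Zfp36 at 124 and 136 and Klf6 at 115 and 130, and Fos at 106 and 90. In the inflammatory list Irf3, which drives interferon genes, had 28 and 47 and Nfkb1 59 and 84, while Ifit3, an interferon target, had 23 and 15. The counting intervals of Irf3, Nfkb1 and Ifit3 include 1. Il6 and Vcam1 had 15 reads each in Des-/- only. Natriuretic and stress genes had a median of 0.01 over 10, with Nppb at 45 and 37 and Gdf15 at 23 reads in Des-/- only. Hippo pathway and YAP target genes had one of 0.01 over 16, with Tead3 at 20 and 35.

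Notch pathway genes, which the study follows, had a median of -0.14 over 21 genes. Notch3, the receptor of vascular mural cells, had 37 reads in Des+/+ and 20 in Des-/- over an intragenic element (0.504, 0.277 to 0.891), the only member 1.5-fold lower. Notch1 had 43 and 42, Notch2 20 and 26, and Dll1, a ligand, 15 in Des-/- only. Over the 15 genes the study follows, Dsp and Notch3 (13.3%) were lower, against 3.02% of all genes, and none higher, with a median of -0.14. The list was drawn up with earlier results of these data known, so its direction is not independent evidence.

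Markers of other heart cells were present and did not all match between the libraries. Of 40 fibroblast and matrix genes, 21 had a peak in either list, and 10 of these (47.6%) had one in Des-/- only, against 11.1% of all genes and 0 in Des+/+ only. They were Col1a1, Col5a1, Col5a2, Col6a1 and Col6a3, which encode collagens, Tcf21 and Meox1, transcription factors of fibroblast lineages, Mmp14, Ddr2 and Tgfb2. Their heights were 15 to 21 reads, next to the lowest that was listed, and some lay far from the gene, such as the Col1a1 peak at -62346 bp from its start. The 11.1% covers genes of all heights and is not matched to such low peaks. Of all Des-/- peaks of 15 to 17 reads, 2156 were in Des-/- only and 2077 were shared. Of the Des+/+ peaks of that height, 1590 were in Des+/+ only and 2392 were shared. The 47.6% alone therefore does not set these genes apart from other low peaks. By position, 10 genes of the list were also in Des-/- only. In the Des-/- swim list Col6a3 alone of these 10 had a peak at the same place, of 15 reads, and in the Des+/+ swim list Meox1 alone, of 15 reads. Ddr2 had a Des-/- swim peak of 16 reads at another place.

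Timp2, an inhibitor of matrix metalloproteinases, had 21 and 45 reads at an element upstream of the gene (2.00, 1.17 to 3.53), a difference its promoter peaks did not show at that size, and Prrx1, a fibroblast homeobox factor, 18 and 27. Fibroblast and matrix genes in both lists had a median of -0.01 over 11, with Sparc lower (42 and 35). Summed over the list, the highest peaks added up to 276 reads in Des+/+ and 501 in Des-/-, where a gene without a listed peak adds 0. Over the 11 genes in both lists the sums were 276 and 318. The defining genes Col1a2, Col3a1, Postn and Dcn had no peak in either list. In a pooled preparation, fewer cells of a type and less signal per cell cannot be told apart.

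Endothelial genes were strongly marked in both libraries, with 32 of 35 listed. Their median was -0.22 over 31 genes, and 26 of the 31 (83.9%) were below 0, against 50% of all genes. Erg, an ETS factor of endothelium, had 96 and 65 reads (0.631, 0.453 to 0.874), Tcf15 36 and 25, and Egfl7 83 and 64. Fli1 (89 and 100) and Pecam1 (43 and 56) were above the median ratio. The summed heights were 1294 and 1191 reads.

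Smooth muscle and pericyte genes had peaks in 6 of 16 cases, without Acta2, Myh11 or Pdgfrb, and summed heights of 159 and 154 reads. Leukocyte genes had them in 3 of 31, with Ptprc, Spi1 and Cd68 absent from both lists. Those 3 were Cyba, a subunit of the phagocyte oxidase (19 and 31), Cd14 (15 and 20) and Irf8 (20 in Des-/- only), with summed heights of 34 and 71, or 34 and 51 without Irf8. The part of these other cells in the lower cardiomyocyte lists was not tested.

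**Figure D4:**
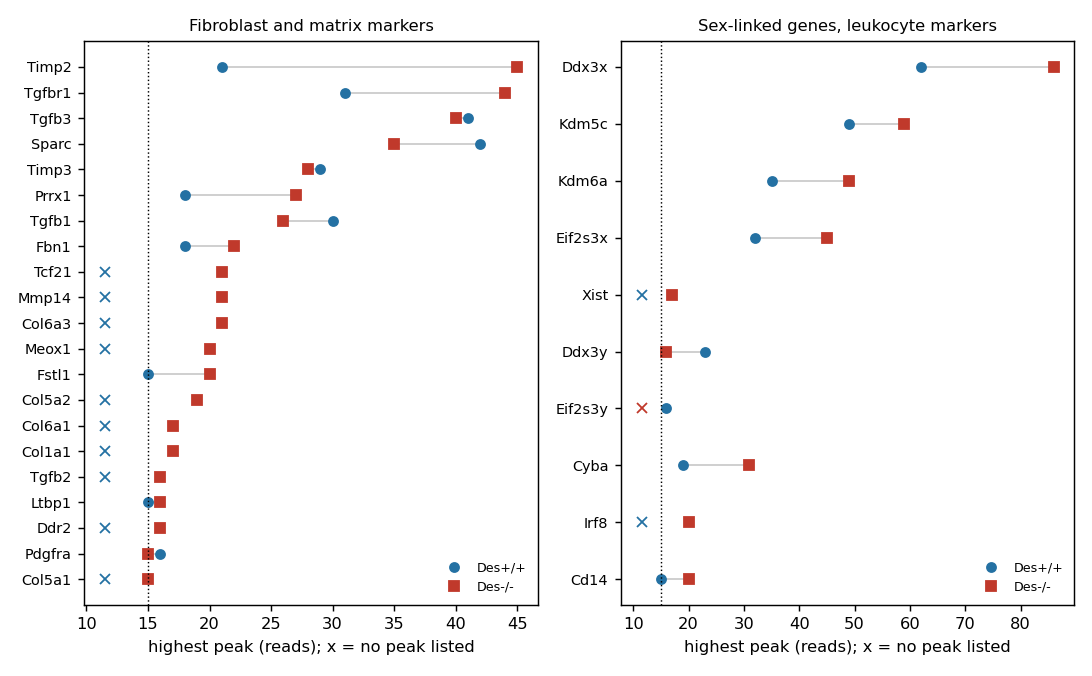
Heights of the highest peak in reads (x axis) of fibroblast and matrix markers on the left, and of sex-linked genes and leukocyte markers on the right. Circles are Des+/+, squares Des-/-, crosses stand for no listed peak, and the dotted line is the lowest listed height of 15 reads. In the left panel 10 genes have a square and no circle.

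The pools also differed at the sex chromosomes. Xist, the RNA of the inactive X chromosome, had a peak of 17 reads in Des-/- only. The Y-linked genes Ddx3y and Eif2s3y had 23 and 16 reads in Des+/+, and in Des-/- 16 and none. The X-linked genes Ddx3x (62 and 86), Kdm6a (35 and 49), Eif2s3x (32 and 45) and Kdm5c (49 and 59), which escape X inactivation, were all above the median ratio. On the X chromosome, 85 of 277 Des-/- peaks (30.7%, 25.5 to 36.4%) had no Des+/+ partner, against 19.6% of all Des-/- peaks, and 30 of 229 Des+/+ peaks (13.1%, 9.33 to 18.1%) had no Des-/- partner. The 188 shared X regions had a median of 0.07, while autosome medians ran from -0.03 to 0.02. Neither swim list had a peak at Xist. Sex and genotype cannot be told apart in these pools for X-linked and sex-responsive genes.

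Some genes differed in their number of peaks. Fewer were listed in Des-/- for Tgm2, a transglutaminase (10 and 4 peaks, 8009 and 5052 bp), Lmod3 (7 and 2), Dach1, a repressor of the retinal determination network (6 and 1, 5571 and 2809 bp), and Itpkb (10 and 5). Itpkb covered 11599 bp in Des+/+ and 12476 in Des-/-, so as much sequence was marked in fewer peaks. More were listed in Des-/- for Trak1, an adaptor of mitochondrial transport (14 and 21), Actn4 (4 and 10), Akap13 (7 and 13), and A530013C23Rik (2 and 7), whose height was also 41 and 76. Trak1 was high in both, with 121 and 126 reads. For Dhrs3, 8 and 13 peaks covered 16019 and 16118 bp.

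The swim pair gave the same contrast in other mice. In its Des-/- list 967 peaks (9.29%) had an input height of 10 or more, against 24 (0.215%) in the Des+/+ swim list, so the input limit removed tall Des-/- swim peaks. Myom1, for example, had 112 and 19 reads after swimming with the limit and 112 and 103 over its rest regions without it. The pairs were therefore compared over the rest regions of each gene, without the limit on the swim lists, a choice made after seeing the data. Each gene took its highest height in each swim list over these regions. Those heights can come from different regions, as for Nkx2-5 with 24 reads in Des+/+ and 17 in Des-/-.

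Single genes that differed at rest did not as a rule differ after swimming. Over 6006 genes with both ratios, the relative log2 ratios of the 2 pairs had a Spearman correlation of 0.087 and a Pearson correlation of 0.088. It is a description across genes, which share libraries and are not independent replicates. Where all 4 heights were 30 or more (1972 genes) the Spearman correlation was 0.072. Of the genes higher at rest, 143 had a ratio after swimming, with a median of 0.05, and 9 were 1.5-fold higher and 8 lower there. Of those lower at rest, 116 had one, with a median of -0.07, and 2 were higher and 6 lower. With the input limit the Spearman correlation was 0.064 over 5140 genes.

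By list, contractile genes were on the lower side in both pairs. After swimming the medians over the rest regions were -0.67 for 5 thick filament genes, -0.59 for 6 thin filament genes, -0.58 for 14 Z-disc genes, -0.21 for 11 of the intercalated disc and -0.32 for 7 channels. All of the 5 thick and 6 thin filament genes and 13 of the 14 Z-disc genes were below 0. Endothelial genes were at 0.09 over 26 after swimming and at -0.22 over 31 at rest, so their lower side at rest was not seen again. Ribosomal protein genes were at -0.07 over 41 and inflammatory genes at -0.06 over 21, both above 0 at rest. The difference between the pairs was not tested, since each has 1 library a side.

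**Figure D5:**
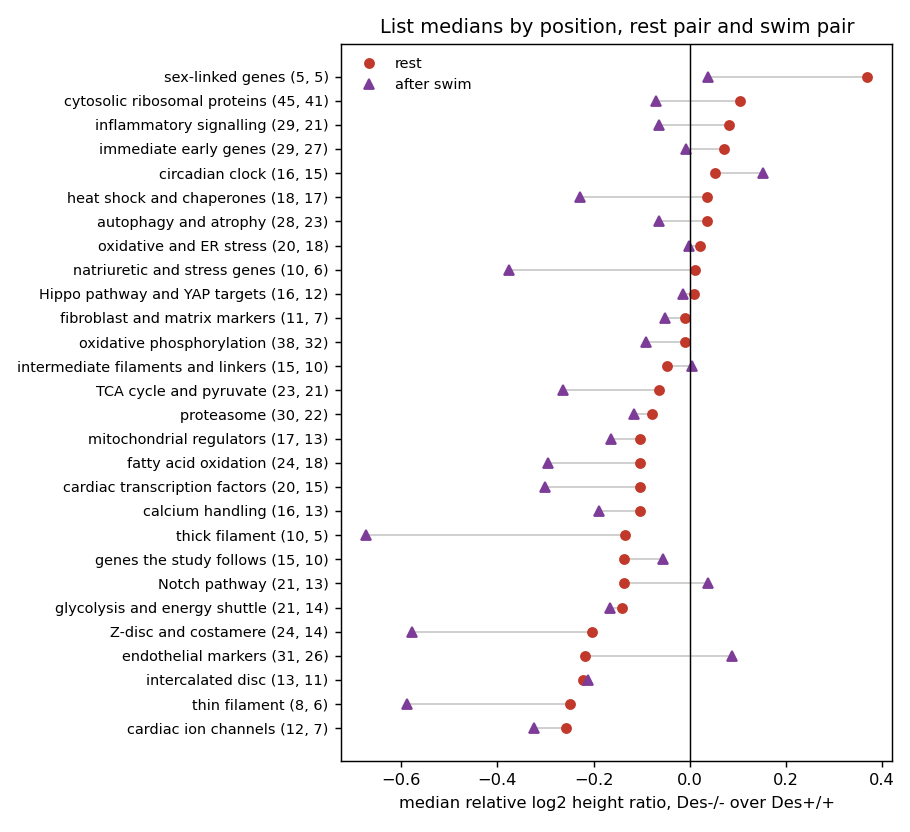
Median log2 height ratio of Des-/- to Des+/+ relative to the median gene (x axis) for each functional list, in unstressed mice (circles) and after swimming (triangles). Heights are the highest in each list over the same rest regions of a gene. The genes behind each median are in brackets. Thick filament genes lie at -0.14 at rest and -0.67 after swimming, and endothelial genes at -0.22 and 0.09.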

How the data were processed

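Chromatin immunoprecipitation sequencing for H3K27Ac was analysed in 2 libraries of cardiomyocytes from unstressed Des+/+ and Des-/- mice, and in the 2 libraries of swum mice for comparison. By the study's methods and the submitters' processing notes, the authors aligned reads to GRCm38 with Bowtie2 2.4.4, handled them with SAMtools 1.13, called peaks in each library against its input with their own scripts and annotated them with ChIPseeker 1.36.0. The deposited height and input height are a coverage signal in reads, not scaled between libraries as far as the sources used here state. The deposited distance to the nearest transcription start is a score in bp. Read totals per library are not given in the sources used here, so depth enters only through the heights and through the median ratio that every gene was set against.

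Peaks overlapping by 1 bp or more were shared. Promoter peaks lay within 3 kb of a start. A gene's value was its highest peak with an input height under 10, and 1.5-fold from the median ratio was the limit for a call. Intervals of ratios are exact binomial intervals of the 2 heights, and those of shares Wilson intervals, at 95%; reads that are PCR copies are not independent, so these cover counting error only. Peaks without a gene symbol (7 and 10) were left out of gene values. Work was done in Python 3.11.15 with pandas 2.3.3, numpy 2.4.6 and scipy 1.17.1. Calling was checked on simulated heights of genes with 40 or more reads in Des+/+ and changes of 1.5 log2 units. That check does not cover lower heights or changes near 1.5-fold.

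Named genes were the 10 highest and 10 lowest ratios among genes reaching 40 reads, the 8 highest genes and the 5 highest peaks of 1 list only, the largest differences in peak number, Des, the genes the study follows, sex-linked genes and cell type markers, and in each of 30 functional lists up to 4 members with the largest ratio or a height in 1 list only plus its highest member. Genes named by position were chosen after their values were seen, as were further examples in the lists. Members, lists and rules were chosen with earlier results of these data known. Sequences were read from the RefSeq GRCm38.p6 genome, in which all peaks of 21 chromosomes lay inside the chromosome ends and 94.5% of 10422 genes had the annotated transcript within 1 kb of the RefSeq gene. The lamin A/C lists were not used here. Alternatives were 13 fixed settings and 2 added after the data were seen, matching by position with the input limit set on the region, and the same for the swim lists without that limit. The deposited fold change, p-value and false discovery rate are the authors' own comparison of each peak with its input and were not used. Handling of duplicate reads is not given in the sources used here.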

Additional observations from a re-analysis of the deposited data

Results flagged for a closer look

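The relative ratios of Chd7, Cdc26, Dclre1b and Esrrg were past 1.5-fold in opposite directions at rest and after swimming. The difference was not tested, since each pair has 1 library a side. Chd7 had 30 and 85 reads in Des+/+ and Des-/- at rest and 56 and 27 after swimming, a relative log2 ratio of -1.184 there. Its tallest region, upstream of the gene, had input heights of 10 in Des+/+ at rest and 14 in Des-/- after swimming, and without the input limit it had 76 and 85 reads at rest and 56 and 53 after swimming. Cdc26 had 75 and 24 at rest and 17 and 49 after swimming (1.396), but at the same place 75 and 68 at rest and 41 and 49 after swimming. Dclre1b had 57 and 23 at rest and 19 and 47 after swimming (1.175), but at the same place 57 and 45 at rest and 34 and 47 after swimming. Esrrg, a nuclear receptor of mitochondrial genes, had 18 and 30 at rest and 25 and 18 after swimming (-0.6052), with the same heights by position. Of these genes, Esrrg alone kept its call at rest by position, but there its heights came from different places. Its Des+/+ height lay at chr1:187910968-187911720 and its Des-/- height at chr1:187651806-187652187. The counting interval of Esrrg at rest, 0.838 to 2.96, includes 1.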

How the results depend on the processing

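No paired analysis was possible because each genotype had 1 library, and no replicate could be left out for the same reason. The 2285 Des+/+-only and 3253 Des-/- only peaks became 1259 and 1869 among peaks of 20 or more reads, and 4687 and 5556 when 50% of both peaks had to overlap, and stayed within 1.5 times otherwise. The median ratio of 1.07 was 1.085 for summed heights, 1.090 after subtracting input height, 1.083 for promoter peaks, 1.040 with matched quantiles and 1.093 among genes with a mean height of 30 or more. The 267 higher and 265 lower genes were 137 and 128 with heights of 20 or more in both lists, 820 and 859 with summed heights, 445 and 434 after subtracting input, 102 and 95 at a mean height of 30 or more, and 22 and 17 at 2-fold. Genes in Des-/- only and Des+/+ only were 1815 and 1149 with an input height under 5, against 1180 and 660.

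List medians gave 345 values under the alternatives, of which 340 lay inside the interval of the median, 3 outside it and 2 reversed. Outside it were oxidative and ER stress with an input height under 5 (-0.2118), and with summed heights the Notch pathway (-0.2801) and the genes the study follows (-0.2003). The 2 reversed were thick filament genes with summed heights (0.2253) and inflammatory signalling with an input height under 5 (-0.03026). Thin filament, Z-disc, intercalated disc, ion channel, calcium handling and endothelial medians were below 0 in every setting that could be computed. So were those of cardiac transcription factors, fatty acid oxidation, TCA cycle and pyruvate, glycolysis and energy shuttle, Notch pathway, proteasome and the genes the study follows. Immediate early, ribosomal protein and sex-linked medians were above 0 in every setting. All settings reuse the same pair of libraries. Among single named genes 16 of 2016 values reversed. With an input height under 5, Tecr was at -0.09311. With merged regions, under either input limit, Sugct was at -0.07925, Prcp at -0.1282, Pik3r2 at 0.03708 and Pfkm at -0.4939. With summed heights Nav1 was at 0.03284, Meis2 at 0.09075, Ankrd1 at 0.4671, Esrrg at -0.7028, Tead3 at -0.1178, Nfil3 at -0.1043 and Arhgef33 at 0.3595. The cause was not tested, except that merged regions compare the same set of places where neighbours had been compared. The Spearman correlation with the swim pair was 0.06363, and 0.08664 over the rest regions of each gene without the input limit, an alternative added after seeing the data. Heights of 15 to 25 reads, where most genotype-only peaks lie, limit what a single gene can show.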
